A study of Mus musculus with 7 samples.

Results

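The genes described here are 10 alpha and beta tubulin isotypes of the mouse, given by name and matched to gene symbols, out of 55401 genes in the count tables. They are the alpha genes Tuba1a, Tuba1b and Tuba4a and the beta genes Tubb2a, Tubb2b, Tubb3, Tubb4a, Tubb4b, Tubb5 and Tubb6. Ribosome-bound mRNA of Purkinje cells was sequenced from 3 wild-type and 4 nm3888-/- mice, 1 library for each mouse, at 3 weeks of age. All mice carried PCP2-Cre, which is active in Purkinje cells, and 1 floxed Rpl22 allele (Rpl22 fl/+) that Cre switches to an HA-tagged copy, so that ribosomes of Cre-expressing cells can be precipitated from cerebellum. The nm3888 allele is a spontaneous insertion of an endogenous retrovirus in an intron of Rreb1, a zinc finger transcription factor gene, that arose on the NOD strain and was backcrossed to C57BL/6J. The mutants were homozygous for it. Wild types 1 and 2 and mutants 1 and 2, all female, form a first series of libraries. Wild type 3 (female) and mutants 3 and 4 (male) form a second series, in which sex and genotype cannot be told apart. Wild type and mutant here mean libraries labelled so.

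Microtubules are built from dimers of 1 alpha and 1 beta tubulin, and mammals carry several genes for each. The isotypes differ mainly in their carboxyl-terminal tails, which face outward and carry most tubulin modifications. Tubb3 (beta III tubulin) is known as the neuronal beta isotype, Tubb2a and Tubb2b encode the beta II isotypes, Tubb4a is abundant in brain, and Tubb4b and Tubb5 are broadly expressed. Tubulin mRNA is also controlled by its own product: when free dimers accumulate, TTC5 binds the first residues of the nascent tubulin chain on the ribosome and the mRNA is degraded.

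The first 24 coding bases of 9 isotypes are shown because they hold the stretch read by that control, with the first 12 bases, which encode the residues recognised, in capitals. The sequences are coding bases of the GENCODE M21 transcripts (GRCm38, the mm10 build), 5′ to 3′.
Tuba1a: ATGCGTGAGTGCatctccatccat
Tuba1b: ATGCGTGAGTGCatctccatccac
Tuba4a: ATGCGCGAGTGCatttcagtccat
Tubb2a: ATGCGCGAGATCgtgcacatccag
Tubb2b: ATGCGAGAGATCgtgcacattcag
Tubb3: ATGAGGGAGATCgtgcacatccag
Tubb4a: ATGCGGGAAATCgtgcacctgcaa
Tubb4b: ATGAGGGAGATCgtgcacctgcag
Tubb5: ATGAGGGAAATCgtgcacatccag
The fourth codon was TGC in all 3 alpha genes and ATC in all 6 beta genes shown. Tuba1a and Tuba1b had identical first 12 bases, and so did Tubb3 and Tubb4b.

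The coding ends show how far the isotypes can be told apart, both as proteins and by short reads. The last 48 coding bases of 1 alpha and 3 beta genes are given with the stop codon in capitals.
Tuba4a: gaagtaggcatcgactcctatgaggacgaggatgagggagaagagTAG
Tubb2a: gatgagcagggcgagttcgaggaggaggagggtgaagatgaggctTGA
Tubb2b: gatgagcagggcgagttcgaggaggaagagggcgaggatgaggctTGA
Tubb3: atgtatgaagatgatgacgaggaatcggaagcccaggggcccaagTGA
The codon before the stop was GAG, a glutamate codon, in Tuba4a. Over the whole coding sequence Tuba1a and Tuba1b differed at 23 of 1356 bases (98.3% identity) and Tubb2a and Tubb2b at 47 of 1338 (96.5%), whereas Tubb4a and Tubb5 were 83.5% identical. Of the windows of 100 bases along the transcript, 65.1% in Tuba1a, 69.5% in Tuba1b, 36.9% in Tubb2a, 27.7% in Tubb2b and 29.2% in Tubb4b occurred also in another gene or pseudogene. None did in Tuba4a, Tubb3, Tubb4a, Tubb5 and Tubb6. Counts of the first set of genes are therefore uncertain where a read matches several copies. The headers set no option to count reads with several positions, but featureCounts knows such reads by a tag that STAR writes and Bowtie2 does not, so their exclusion cannot be assumed for libraries aligned with Bowtie2.

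This sharing touched the libraries unequally. The file headers place the alignments of the first series in a Bowtie2 folder and those of the second in a folder of STAR, which splits reads across exon junctions. The 12 processed pseudogenes of Tuba1a, Tuba1b and Tuba1c held 41.4 to 43.9% of the group's counts in first-series libraries but 0.575 to 1.15% in second-series ones. For Tubb4b and its 3 pseudogenes the shares were 21.7 to 23.5% and 0.324 to 1.23%. For Tubb2a with Tubb2b they were 1.95 to 2.35% and 0.0176 to 0.0528%, and for Tuba4a 8.03 to 8.92% and 0.0155 to 0.0577%. Tuba4a shares no window of 100 bases, and its pseudogene was assigned to it by shorter shared stretches. Whether the counts on that pseudogene came from Tuba4a was not tested. Mutants and wild types of the same series differed far less than the series did, so genotypes were compared with the series as a term. They were not equal: in every group both second-series mutants lay above the wild type (Tubb4b 0.72 and 1.23% against 0.324%). First-series mutants were also higher for Tubb4b (23.1 and 23.5% against 21.7% in both wild types).

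**Figure D1:**
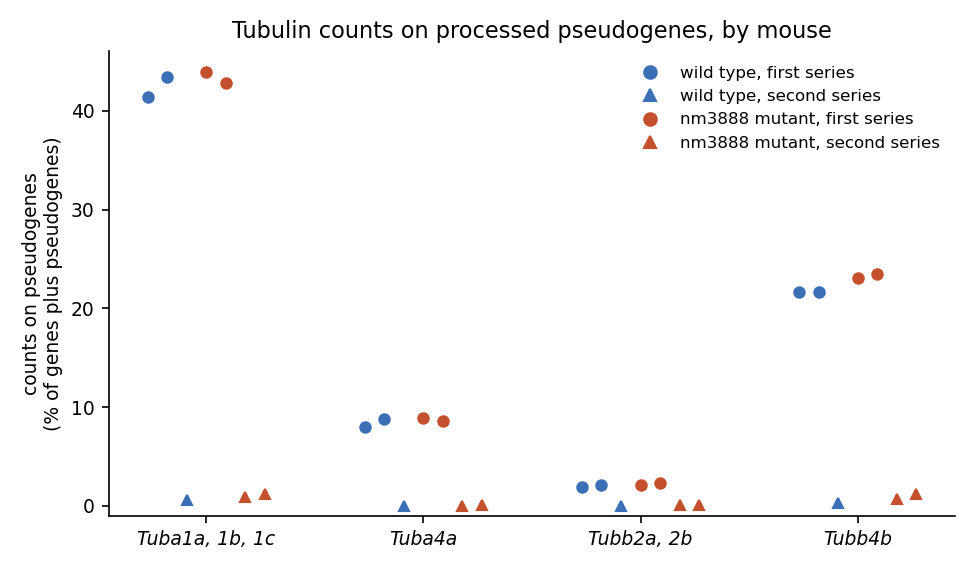
Counts on processed pseudogenes as a percentage of the counts on each tubulin group and its pseudogenes (y axis), for 4 groups (x axis), with 1 point per mouse; circles are the first and triangles the second series. The first series lies at 41.4 to 43.9% for the Tuba1 genes and the second at 0.575 to 1.15%.

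Total counts ran from 18023017 to 107937386 per library (5.99-fold, median 33849895). The Purkinje label fits its markers: their summed level was 43207 to 47852 CPM (read counts relative to library size, after TMM scaling) in wild-type and 39565 to 54175 CPM in mutant libraries, and 0 of 11 were called different between genotypes by edgeR (1 at an unadjusted p under 0.05, higher; 0 by DESeq2). Rreb1, the gene that carries the insertion, was at 17.7, 17.4 and 14.4 CPM in libraries labelled wild type and 20.2, 19.1, 23.7 and 10.8 CPM in those labelled mutant. Its count was thus not lower in the mutants (log2 fold change 0.20, edgeR adjusted p = 0.640) and does not bear out the labels, on which every direction given here rests. The paper reports that mutants lose V7, the predominant Rreb1 transcript in brain, with the transcripts X2 and X4 at levels like those of wild types. For total Rreb1, it reports no in situ signal in mutant brain from a probe to all transcripts. Its Northern blot for total Rreb1 likewise lost the main transcript. The gene count here does not show such a loss. Which Rreb1 transcripts were counted was not analysed here. Other cell types were less represented. The 9 granule cell markers summed to 454.5 to 560.9 CPM in wild types and 625.9 to 1209 CPM in mutants. In mutants 1 to 4 this sum was 1.23, 1.28, 2.25 and 1.24 times the wild type of the same series, with 0 of 9 called by edgeR (5 higher at an unadjusted p under 0.05, 1 by DESeq2). For 10 oligodendrocyte markers the ratios were 1.13, 1.11, 1.54 and 1.98, with 2 called higher by edgeR and 4 by DESeq2 (7 higher and 1 lower at an unadjusted p under 0.05). For 10 Bergmann glia and astrocyte markers they were 1.23, 0.821, 1.16 and 1.09, with 1 called higher and 2 lower. Interneuron markers stood at 0.913, 0.921, 0.653 and 0.921 times the wild type, and the sparse endothelial (29.4 to 67.0 CPM) and microglial (3.12 to 10.6 CPM) markers at 1.14 to 2.28 times, with 0 called in these 3 lists by edgeR. At an unadjusted p under 0.05, 3 were higher in each and 1 interneuron marker lower, and DESeq2 called 1 interneuron and 2 endothelial markers higher and 0 microglial ones. Pvalb, the most abundant of the interneuron markers, is also a known Purkinje cell gene. It was at 2219, 2319 and 3337 CPM in wild types 1 to 3, most of an interneuron sum of 2312 to 3521 CPM. The interneuron ratios therefore mainly reflect Pvalb, and the median log2 fold change of the 7 markers was 0.19. No marker was at 0 in every library. The part of these cells in the tubulin values was not tested.

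Tubulin mRNA was lower in the libraries labelled nm3888-/-. The 10 isotypes together took 0.468, 0.463 and 0.426% of all counts in wild types 1 to 3 and 0.289, 0.259, 0.266 and 0.259% in mutants 1 to 4, with no overlap. In the fit over all genes (edgeR's quasi-likelihood test, Benjamini-Hochberg adjusted p under 0.05), 7 of the 10 were called lower, where 5.95% of the 17621 genes tested were. None was called higher, against 2.58% of all genes; none had an unadjusted p under 0.05 in that direction, and DESeq2 called 0. In 8 of the 10, all 4 mutants lay below all 3 wild types, which held for 8.92% of all genes. The isotypes had a median log2 fold change of −0.59, all tested genes one of 0.03. All 10 passed the filter on low counts. Levels in this tissue precipitate are relative to the counts of each library. The Purkinje markers summed to 0.892, 1.18, 1.13 and 1.09 times the wild type of the same series in mutants 1 to 4. Whether fewer cells or less mRNA per cell lay behind the tubulin values was not tested.

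**Figure D2:**
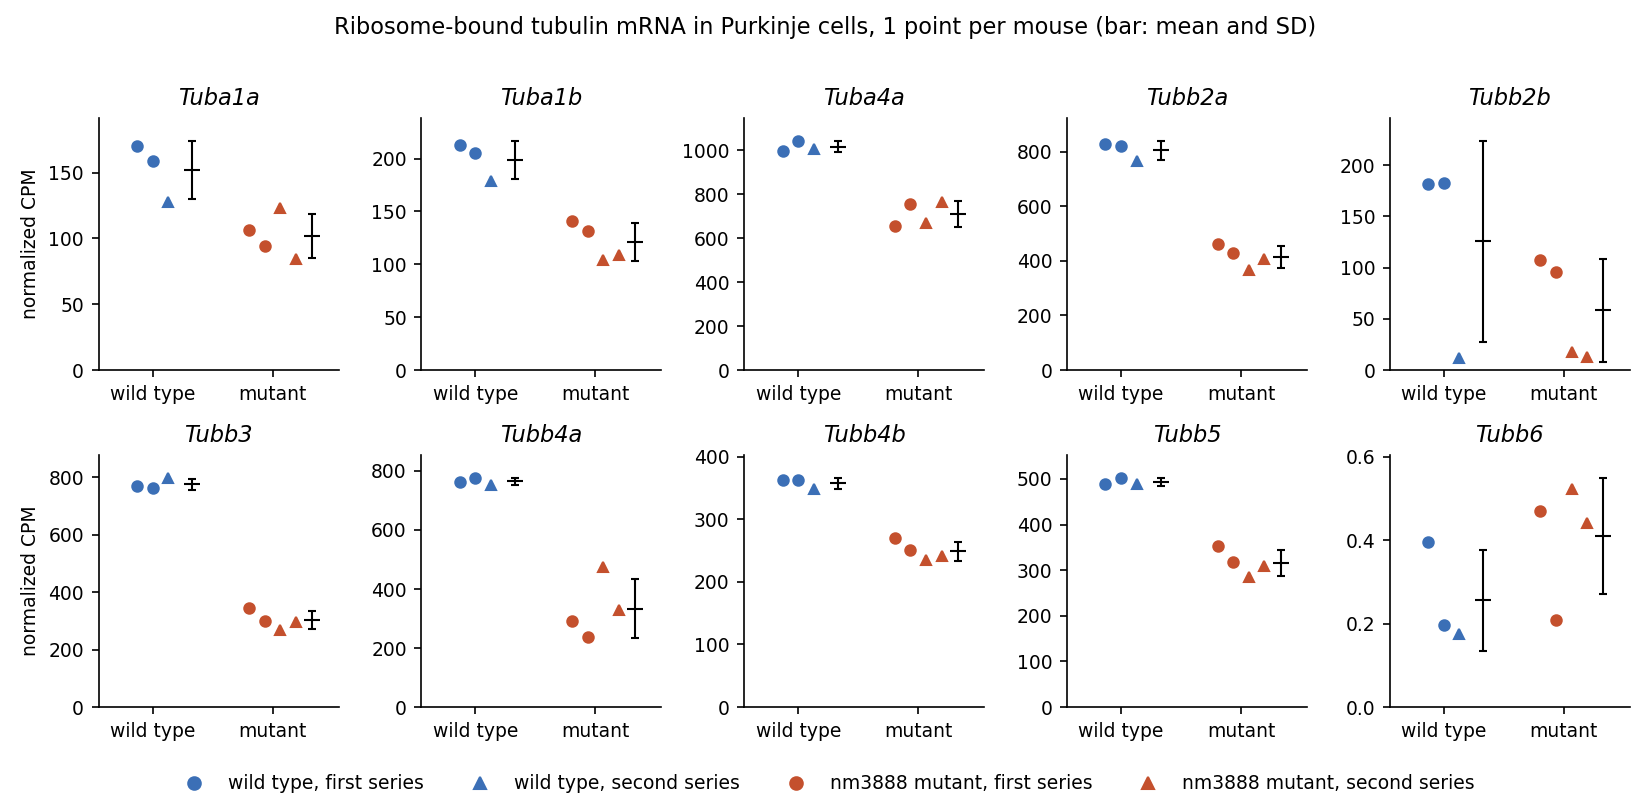
TMM-normalized CPM (y axis) of the 10 isotypes by genotype (x axis), 1 point per mouse, circles for the first and triangles for the second series, with the mean and SD beside the points. Mutants lie below wild types without overlap in 8 panels, whereas Tubb2b splits by series and Tubb6 is under 1 CPM in every mouse.

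With both series and the series term, the largest fall was in Tubb3 (chromosome 8, 123411424 to 123422015, 4 exons, with the annotated gene Gm20388 overlapping it on the same strand). Its level was 769, 761 and 799 CPM in wild types 1 to 3 and 346, 299, 269 and 296 CPM in mutants 1 to 4. Every mutant was at 33.6 to 45.3% of the wild type of its series. The log2 fold change was −1.35 (SE 0.10, 95% confidence interval −1.58 to −1.12, edgeR adjusted p = 0.000118), or 2.55-fold lower, and only 1.51% of all genes tested had a lower value. The call was kept in all 17 other settings run, with log2 fold changes from −1.50 to −1.25. Tubb4a fell more than Tubb3 in the first series alone (−1.54 against −1.25), without wild type 3, without mutant 3 and with sex in place of the series. The Tubb3 transcript shares no window of 100 bases with another gene.

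Tubb4a (chromosome 17, 57080066 to 57087782) fell by nearly as much. It stood at 764, 777 and 753 CPM in wild types and at 291, 239, 474 and 330 CPM in mutants, so mutant 3 was well above the other mutants and still below every wild type. The log2 fold change was −1.29 (SE 0.18, edgeR adjusted p = 0.00276), with −1.54 in the first series and −0.90 in the second. The difference between the series did not pass the test (edgeR interaction 0.64, 95% interval −0.04 to 1.31, adjusted p = 0.892), and 0.0795% of all genes were called in that test. Mutant 3 had the highest ratio of granule cell markers (2.25), whereas that of oligodendrocyte markers was highest in mutant 4 (1.98, against 1.54 in mutant 3). Whether either ratio bears on the Tubb4a level was not tested. Without mutant 3 the call held. It was lost without the series term (adjusted p = 0.0687) and with sex in its place (adjusted p = 0.0507).

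Tubb2a (chromosome 13, 34074274 to 34078007) had the highest level per kilobase of the isotypes. It stood at 829, 821 and 765 CPM in wild types and at 461, 428, 365 and 406 CPM in mutants, each mutant at 47.7 to 55.9% of the wild type of its series. The log2 fold change was −0.93 (SE 0.09, edgeR adjusted p = 0.000408), and this call too was kept in all 17 other settings run.

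Its near copy Tubb2b (34126748 to 34130466) behaved differently in each series. In the first series it was at 182 and 183 CPM in wild types and 108 and 95.6 CPM in mutants. In the second it was at 12.1 CPM in the wild type and 17.6 and 12.9 CPM in mutants. Over both series the log2 fold change was −0.40 (95% interval −0.94 to 0.14, edgeR adjusted p = 0.348) and the genotypes overlapped. It was −0.84 (adjusted p = 0.0124) in the first series alone and 0.35 (adjusted p = 0.579) in the second, and without wild type 3 it was called lower (adjusted p = 0.0313). Counting Tubb2a, Tubb2b and their pseudogene as 1 feature gave −0.91 (SE 0.09, adjusted p = 0.00042), with −0.88 in the first and −0.95 in the second series. Both genes lie 3.7 and 3.65 Mb from Rreb1, the site of the mutation, and the strain of origin of that stretch was not analysed here.

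The broadly expressed beta isotypes fell less. Tubb5 (chromosome 17, 35833921 to 35838306) was at 489, 502 and 488 CPM in wild types and 353, 318, 284 and 308 CPM in mutants, a log2 fold change of −0.63 (SE 0.09, edgeR adjusted p = 0.00373). Tubb4b (chromosome 2, 25222160 to 25224702) was at 363, 362 and 348 CPM in wild types and 269, 251, 234 and 241 CPM in mutants, or −0.51 (SE 0.08, adjusted p = 0.00653). Neither gene's genotypes overlapped, and the spread within each genotype was small against the gap. Tubb4b lost its call with the replicate number as a block (adjusted p = 0.0509) and without wild type 3 (adjusted p = 0.0709), and Tubb5 without wild type 3 (adjusted p = 0.0504), at similar log2 fold changes (−0.51, −0.48 and −0.56). Both lost it with sex in place of the series, and Tubb4b in each series alone. With its pseudogenes counted in, Tubb4b was at −0.49 (adjusted p = 0.00814).

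Tubb6, another beta isotype, was hardly detected, with 10, 5 and 18 counts in wild types and 9, 7, 31 and 20 counts in mutants. Its levels were 0.395, 0.198 and 0.175 CPM and 0.471, 0.209, 0.522 and 0.442 CPM. The genotypes overlapped, and the log2 fold change of 0.81 (95% interval −0.22 to 1.85, edgeR adjusted p = 0.323) was not called.

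Among the 3 alpha isotypes of the set Tuba4a (chromosome 1, 75214228 to 75219865), which encodes no terminal tyrosine, had the highest level per kilobase, below that of Tuba8, which is described with the other tubulin genes. It was at 997, 1044 and 1008 CPM in wild types and 655, 756, 668 and 767 CPM in mutants, with a log2 fold change of −0.52 (SE 0.10, edgeR adjusted p = 0.0128). It lost its call in 6 of 17 other settings, at log2 fold changes of −0.53 to −0.49. These were without wild type 2 (adjusted p = 0.0717), without wild type 3 (adjusted p = 0.0823), the first and the second series alone (adjusted p = 0.0652 and 0.1985), no series term (adjusted p = 0.0527) and sex in its place (adjusted p = 0.165).

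Tuba1b (chromosome 15, 98931425 to 98934565), the broadly expressed alpha isotype, was at 213, 205 and 179 CPM in wild types and 141, 132, 104 and 108 CPM in mutants. The log2 fold change was −0.67 (SE 0.08, edgeR adjusted p = 0.00184), and the call was lost without the series term and with sex in its place. Tuba1a (98949837 to 98953703), known as the main alpha isotype of developing neurons, was at 170, 159 and 128 CPM in wild types and 106, 94.2, 124 and 84.5 CPM in mutants. All mutants were lower, but mutant 3, at 96.7% of wild type 3, came close to it. The log2 fold change of −0.55 (SE 0.15) did not pass the test (edgeR adjusted p = 0.0618), and without mutant 3 it did (−0.67, adjusted p = 0.00617). DESeq2 also called it lower (adjusted p = 0.0183), as did edgeR without the filter on low counts (adjusted p = 0.00923). In the first series alone edgeR called it too (−0.71, adjusted p = 0.0262), whereas its log2 fold change in the second was −0.29. Both genes overlap the annotated gene Gm49450 on the same strand. Counted as 1 feature with Tuba1c and the pseudogenes they gave −0.58 (SE 0.10, adjusted p = 0.0080).

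**Figure D3:**
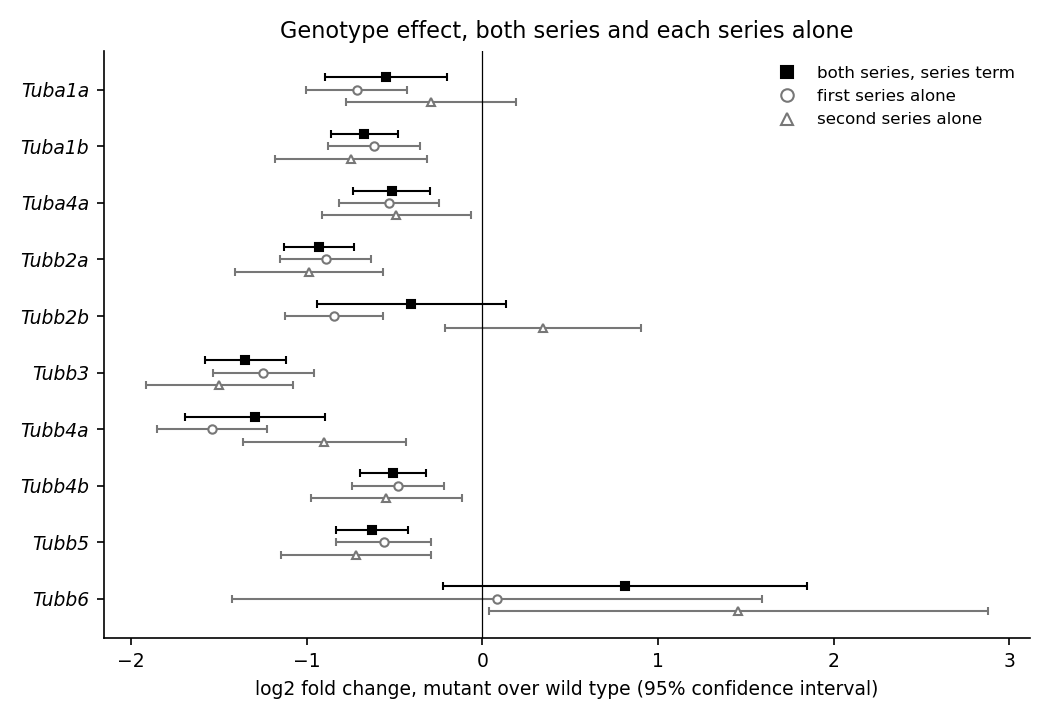
Log2 fold change of mutant over wild type (x axis) with 95% confidence intervals for the 10 isotypes (y axis), from both series with a series term (filled squares), the first series alone (circles) and the second alone (triangles). Tubb3, Tubb4a and Tubb2a lie farthest below 0 in the fit of both series, and the series differ in sign for Tubb2b.

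The summed families show the size of the change. Per kilobase of annotated exon, the 7 beta isotypes summed to 1670, 1670 and 1559 CPM per kb in wild types and 884.5, 790.7, 789 and 772.9 CPM per kb in mutants. Each mutant was thus at 47.3 to 53% of the wild type of its series (mean log2 difference −0.998, 2-fold lower). The 3 alpha isotypes summed to 477, 480 and 439 CPM per kb in wild types and 311, 327, 305 and 312 CPM per kb in mutants, at 65 to 71.1% (−0.55). The ratio of these alpha and beta sums, without Tuba8, was 0.286, 0.287 and 0.281 in wild types and 0.352, 0.414, 0.386 and 0.403 in mutants. That was a log2 difference of 0.45, higher in 4 of 4 mutants. In all 3 measures the genotypes did not overlap. The exact two-sided permutation test within series gave p = 0.0556 for each, the smallest that its 18 splits allow, so it cannot reach 0.05. Over all 35 splits of the mice the exact permutation p was 0.0286 for each, again the smallest possible, but these splits exchange mice between the series and ignore it. With every other alpha or beta gene and the pseudogenes added, the log2 differences were −0.54, −0.98 and 0.44.

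**Figure D4:**
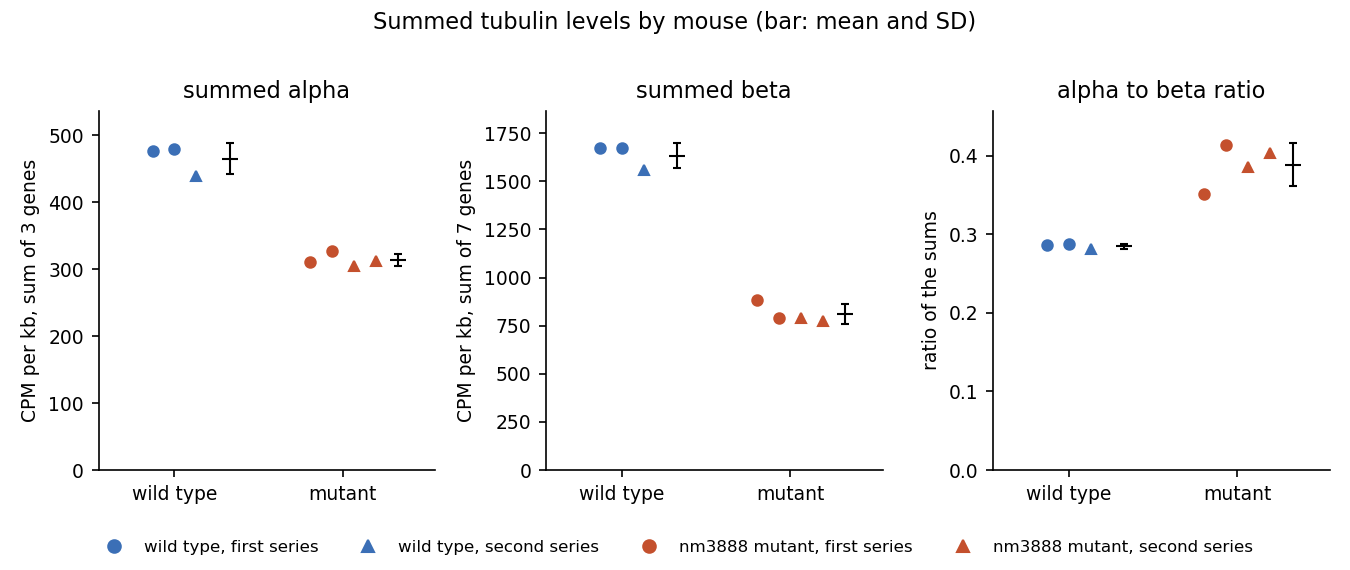
Summed CPM per kilobase of the 3 alpha and 7 beta isotypes and their ratio (y axes) by genotype, 1 point per mouse with the mean and SD beside. Wild-type ratios lie between 0.281 and 0.287 and mutant ratios between 0.352 and 0.414.

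By the difference in CPM per kb, averaged over the series, Tubb3 carried 31.9% of the beta fall, Tubb2a 29.3% and Tubb4a 23.9%. Tubb5 carried 6.57% and Tubb4b 6.33%. Of the alpha fall, Tuba4a carried 56.5%, Tuba1b 26.7% and Tuba1a 16.8%. Tuba8 is not in this split, and its mean of 343.2 CPM per kb in wild types and 244 in mutants differs by more than that of any of the 3.

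The levels of Tubb3, Tubb4a and Tubb4b lay closer together in mutants, whereas those of Tubb2a and Tubb3 did not. In wild types of both series the order of the beta isotypes ran Tubb2a, Tubb3, Tubb4a, Tubb4b, Tubb5, Tubb2b, Tubb6. The wild-type means were 499.9 ± 21.7 CPM per kb (SD, n = 3) for Tubb2a, 415.5 ± 10.6 for Tubb3, 343.1 ± 5.47 for Tubb4a, 171.3 ± 4.14 for Tubb4b and 148.2 ± 2.41 for Tubb5, and these neighbours did not overlap in any mouse. In mutants Tubb2a stayed first, at 257.8 ± 25.0 (SD, n = 4). Tubb3 (161.9 ± 17.2), Tubb4a (149.7 ± 45.3) and Tubb4b (119.2 ± 7.29) followed in the wild-type order. In mutants Tubb3 and Tubb4a overlapped, as did Tubb4a and Tubb4b. Within series, by the mean of the mutants, Tubb4b passed Tubb4a in the first series and Tubb4a passed Tubb3 in the second, each in 1 of 2 mutants. The alpha order in wild types was Tuba4a (274.7 ± 6.64), Tuba1b (106.1 ± 9.54) and Tuba1a (84.4 ± 12.2), and these did not overlap either, with 95.4 CPM per kb as the lowest Tuba1b and 94.5 as the highest Tuba1a value. In mutant 3 alone Tuba1a, at 68.5 CPM per kb, exceeded Tuba1b, at 55.6.

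Isotype shares are each gene's counts per kilobase as a percentage of the set's 3 alpha or 7 beta isotypes, within each library. They need no scaling between libraries. Tuba8, which stood above Tuba4a per kilobase, is not in the alpha total. The Tubb3 share of the beta isotypes was 24.6, 24.4 and 27.4% in wild types and 21.0, 20.2, 18.2 and 20.5% in mutants, a mean change of −5.99 percentage points within series. The Tubb4b share was 10.4, 10.4 and 10.7% in wild types and 14.6, 15.2, 14.2 and 14.9% in mutants (4.19 points). The Tubb5 share was 8.81, 9.04 and 9.41% in wild types and 12.0, 12.1, 10.8 and 12.0% in mutants (2.56 points). In these 3 isotypes no mutant share overlapped a wild-type one, lower for Tubb3 and higher for Tubb4b and Tubb5. The levels of all 3 were lower in mutants, so the higher shares are relative to the beta sum only.

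The Tubb2b share rose within each series, from 4.75 and 4.78% to 5.30 and 5.27% and from 0.337% to 0.974 and 0.728%, and the share of Tubb6 stayed under 0.03% throughout (at most 0.0271%). Tubb2a held 30.8, 30.5 and 30.5% in wild types and 32.4, 33.6, 28.8 and 32.6% in mutants, overlapping in the second series. In first-series mice Tubb4a held 20.5 and 20.9% in wild types and 14.8 and 13.6% in mutants. In the second series it was 21.7% in the wild type and 27.0 and 19.2% in mutants 3 and 4, on either side of it. For Tubb2b, Tubb3, Tubb4b, Tubb5 and Tubb6 the exact permutation test within series gave p = 0.0556 each, the smallest possible, and 0.111 after Benjamini-Hochberg adjustment over the 10 shares. Shares of 1 family are not independent, since they sum to 100%.

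The alpha shares did not separate. Tuba4a held 56.4, 58.8 and 62.1% in wild types and 56.9, 62.5, 59.3 and 66.4% in mutants (1.40 points, exact permutation p = 0.722). Tuba1b held 23.8, 22.8 and 21.7% and then 24.2, 21.5, 18.3 and 18.5% (−1.91 points, p = 0.167 by the same exact test). Tuba1a held 19.8, 18.3 and 16.2% and then 18.9, 16.0, 22.5 and 15.04% (0.50 points, exact p = 0.944).

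**Figure D5:**
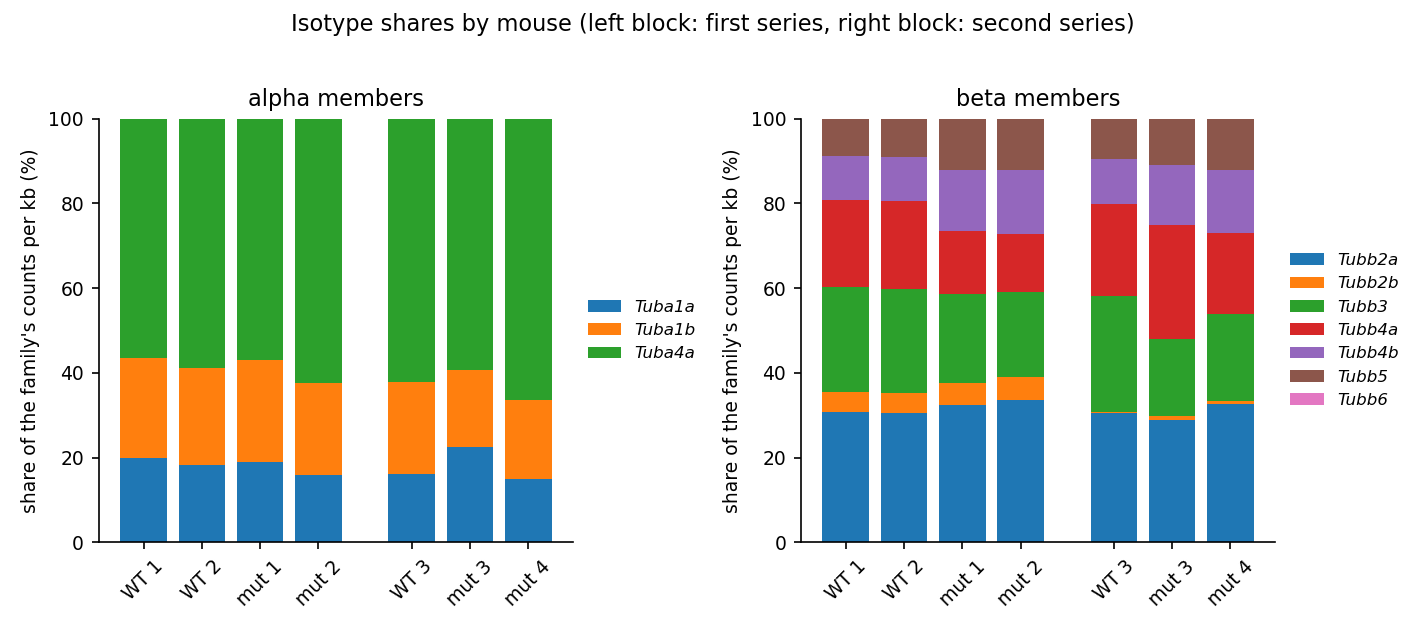
Share of each isotype in the summed counts per kilobase of the alpha (left) or beta (right) isotypes of the set, in percent (y axis), 1 bar per mouse, with the first series in the left block of each panel and the second in the right. Tuba8 is not in the alpha total. The Tubb3 band narrows from 24.4 to 27.4% in wild types to 18.2 to 21.0% in mutants, and the bands of Tubb4b and Tubb5 widen.

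The same question was put to the fit over all genes, with the summed counts of the family in place of the library size, so that a value gives a gene's change against its family. Against the beta sum Tubb3 was at −0.38 (95% interval −0.63 to −0.12, edgeR adjusted p = 0.0102), Tubb4b at 0.47 (0.23 to 0.70, adjusted p = 0.00201) and Tubb5 at 0.35 (0.10 to 0.59, adjusted p = 0.0127). Tubb2b (0.57, adjusted p = 0.0374) and Tubb6 (1.77, adjusted p = 0.00395) were also called, Tubb2a (0.04) and Tubb4a (−0.32, adjusted p = 0.0915) were not. In this fit 89.7% of all genes were called, since the beta sum itself fell, so the calls say nothing that sets the isotypes apart from other genes. Against the alpha sum, where 64.3% of all genes were called, the log2 values were 0.02 for Tuba4a, −0.13 for Tuba1b and 0.00 for Tuba1a (95% interval −0.38 to 0.37), none of them called by edgeR. Without wild type 3, the Tubb3 value was −0.27 (adjusted p = 0.126), and those of Tubb4b (0.50) and Tubb5 (0.41) stayed called. Tubb5 lost its call without wild type 1 (adjusted p = 0.0586) and without wild type 2 (adjusted p = 0.0615), Tubb2b without wild type 3 or mutant 3 (adjusted p = 0.466 and 0.0597) and Tubb6 without wild type 3 (adjusted p = 0.122), and Tubb4a was called without wild type 3 or mutant 3 (adjusted p = 0.0204 and 0.00801).

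The promoters of a strongly and a weakly lowered beta gene are shown to give the sequence context of the falls, from Tubb2a (log2 fold change −0.93) and Tubb4b (−0.51). They are the 250 bases before the RefSeq start (GRCm38.p6), with the motifs CANNTG, the E box, and TATAA, the core of the TATA box, in capitals, both searched on both strands. The motifs do not overlap in these windows.
Tubb2a, chr13:34078009-34078258, minus strand: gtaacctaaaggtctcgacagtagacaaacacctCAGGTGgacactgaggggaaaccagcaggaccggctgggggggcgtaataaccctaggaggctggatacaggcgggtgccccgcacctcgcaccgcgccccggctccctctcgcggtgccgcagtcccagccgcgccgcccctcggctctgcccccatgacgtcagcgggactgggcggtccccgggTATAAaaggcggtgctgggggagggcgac
Tubb4b, chr2:25224703-25224952, minus strand: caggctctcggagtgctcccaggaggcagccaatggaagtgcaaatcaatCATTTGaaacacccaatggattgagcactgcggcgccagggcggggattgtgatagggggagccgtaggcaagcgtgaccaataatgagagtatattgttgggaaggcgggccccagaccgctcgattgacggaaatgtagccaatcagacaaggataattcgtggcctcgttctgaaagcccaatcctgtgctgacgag
Tubb2a held CANNTG at −216 and TATAA at −29, and Tubb4b held CANNTG at −200 and no TATAA. Of the 32851 promoters in the reference, 66.2% held CANNTG and 22.8% TATAA. The windows of Tubb3 and Tubb4a held no CANNTG, and that of Tubb3 held TATAA. Of the 10 isotypes, 8 had an entry.

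The other tubulin genes were read from the same fit. Tuba8, an alpha isotype outside the set described, was at 725, 828 and 777 CPM in wild types and 649, 582, 450 and 528 CPM in mutants, with no overlap. Its log2 fold change was −0.47 (SE 0.11, edgeR adjusted p = 0.0388), and with the replicate block the call was lost (adjusted p = 0.123). Per kilobase it was above Tuba4a, at 343.2 ± 22.7 CPM per kb (SD, n = 3) in wild types. Tuba1c was at 82.6 and 89.0 CPM in the first-series wild types and 0.439 CPM in the third, the split seen for Tubb2b, and its log2 fold change of −0.24 was not called (adjusted p = 0.576). Tuba3a, Tuba3b and Tubb1 had no counts, and Tubal3 at most 1 per library.

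Of 47 other genes of the tubulin pathway that could be tested, 6 were called lower and none higher, against 5.95% and 2.58% of all genes tested (1 higher at an unadjusted p under 0.05; DESeq2 called 6 lower and 0 higher), with a median log2 fold change of −0.06. These calls were less firm than those of the isotypes: none was kept with the replicate block, in either series alone, or without wild type 2 or wild type 3. Besides Tuba8 they were in the gamma-tubulin ring complex, which nucleates microtubules, and among severing proteins. In the first list, 3 of 12 were called lower, Tubg1 (−0.51, SE 0.11, adjusted p = 0.0209) and Tubg2 (−0.63, SE 0.13, adjusted p = 0.0173), which encode gamma tubulin, and Tubgcp4 (−0.42, SE 0.10, adjusted p = 0.0312), which encodes a ring component. In the second, 2 of 9 were called lower, Katnal1 (−0.49, SE 0.09, adjusted p = 0.0110), a katanin subunit, and Fign (−0.61, SE 0.15, adjusted p = 0.0376), which encodes fidgetin.

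No gene that folds tubulin was called by edgeR or DESeq2. Of 8 subunits of the CCT chaperonin, which folds new tubulin, none had an unadjusted p under 0.05, and Cct3 (0.11, adjusted p = 0.519) and Cct2 (0.10, adjusted p = 0.559) had the smallest p. The 6 prefoldin genes gave none either (Vbp1 −0.34, adjusted p = 0.410; Pfdn1 0.13, adjusted p = 0.548). Of 7 genes for tubulin cofactors and their relatives, Tbcel, which encodes a cofactor E-like protein known to destabilise tubulin, had an unadjusted p under 0.05 (−0.26, adjusted p = 0.0827) and Tbce, for a cofactor that helps assemble the dimer, followed (−0.23, adjusted p = 0.285). For the autoregulation machinery, Cnot11 was at −0.19 (95% interval −0.40 to 0.03, edgeR adjusted p = 0.275) and Ttc5 at −0.13 (−0.37 to 0.11, adjusted p = 0.501), with none of 3 called or under an unadjusted p of 0.05.

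The genes whose levels over the 7 libraries, centred within series, lay closest to Tubb3 were Siah3, Lynx1 and Tvp23a, at root mean square differences of 0.0507, 0.0522 and 0.0542 on the log2 scale among 7672 genes compared. Lynx1, which encodes a modulator of nicotinic receptors, was at 701, 745 and 706 CPM in wild types and 307, 293, 240 and 251 CPM in mutants.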

How the data were processed

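Counts were deposited per mouse for 7 libraries, raw with no normalization. The authors removed duplicates and trimmed reads with fastp, aligned them to mm10 (Bowtie2 in the methods; Bowtie2 and STAR folders in the headers) and counted reverse-stranded read pairs with both ends mapped with featureCounts 2.0.1 on GENCODE M25, per the file headers. The deposited counts were joined to symbols (55141 of 55401 IDs, 99.53%). Genotypes were compared with edgeR 4.0.16 (R 4.3.3, limma 3.58.1; TMM, filterByExpr by genotype, 17621 genes, library series as a term, glmQLFit and glmQLFTest, Benjamini-Hochberg, calls at 0.05). SE is the log2 fold change over the root of F. DESeq2 1.42.0, named in the methods with batch as covariate, was an alternative among 17, besides merged near-identical copies, chosen after the data were seen. Levels per kilobase used the deposited exon length. Shares and sums were tested by exact permutation.

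Genes named are the 10 isotypes, counted other tubulins, and of each pathway list up to 3 called genes per direction with the smallest adjusted p, or the 2 smallest where none was called. The 3 genes most like Tubb3 had a mean log2 CPM over 4. The isotypes and lists were chosen with earlier results of these data known.

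Wild types and mutants 1 to 3 share replicate numbers in the labels. Deviations from the group means correlated at 0.91, 0.95 and 0.95 between same-numbered libraries over 14478 genes, but at −0.33, −0.06 and −0.47 once the series was removed, so the shared number follows the series. The block stood in place of the series term. No 2 libraries of a genotype agreed within sampling noise. The chi-square over its degrees of freedom was 12.5 to 64.9 for pairs within a series and 365 to 715 for pairs across the series. On simulated counts with these depths (17397 genes tested), the test of mutant against wild type recovered 13 of 50 genes set to differ 1.5-fold, 35 of the 50 set to 2-fold, and 49 of those at 4-fold, while 11 of its 158 calls were false.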

Additional observations from a re-analysis of the deposited data

Results flagged for a closer look

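Of 23 measures checked for a mutant that stands apart from the other 3, 2 had one, where chance gives about 1 in 20. The Tubb5 share of the beta isotypes was 10.8% in mutant 3 and 12.0 to 12.1% in the others, and all 4 values were above the wild types. The summed beta level was 884.5 CPM per kb in mutant 1 and 772.9 to 790.7 in the others, and all 4 were below the wild types.

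The genotype effect on Tubb2b had opposite directions in the series, with both mutants below both wild types in the first and both above the wild type in the second. The interaction was 1.19 on the log2 scale (second minus first, SE 0.26, edgeR adjusted p = 0.363 over all genes), so it did not pass the correction. The series differ in the aligner named in the headers, and the level of Tubb2b in wild types differed between them (182 and 183 against 12.1 CPM). That the aligner accounts for the opposite directions was not tested.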

How the results depend on the processing

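Without the series term 4 isotypes were called lower and with sex in its place 2, in place of 7. Only mutants 3 and 4 were male, so with sex in its place the genotype effect rests on mutants 1 and 2 against the wild types of both series. The other planned settings gave 5 to 8, and none called an isotype higher. With the replicate block 6 isotypes were called lower, and Tubb4b was the only member call it changed (log2 fold change −0.51, edgeR adjusted p = 0.0509). Mutant 4 has no wild type of its number, so it adds nothing to the genotype effect in that setting. Tubb3 and Tubb2a were called in all 17 other settings. Leaving out 1 mouse gave 5 to 8 isotypes, lowest without wild type 3. The log2 fold change of Tubb2b turned to 0.35 in the second series alone.

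The 6 calls among other pathway genes became 0 without the series term, with sex in its place, with the replicate block and in each series alone, and 0 to 5 when 1 mouse was left out (1 without mutant 2, 3 without wild type 1 or mutant 4). Relative to the family, 3 to 5 isotypes were called with 1 mouse left out, against 5. In that comparison, with 1 mouse left out, Tuba1a lay between −0.14 (without wild type 3) and 0.11 (without mutant 2), turning positive also without wild type 1 (0.07) and mutant 4 (0.07), and Tuba4a between −0.00070 (without mutant 2) and 0.042 (without mutant 1), and Tubb2b turned to −0.12 without the series term. Their main values, besides that of Tubb2b, were near 0.

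The summed alpha difference was −0.59 to −0.53 with 1 mouse left out, the first without wild type 3, and the beta sum and the ratio moved by less than the spread between replicates. The shares of 5 isotypes, all beta and so not independent of each other, moved 1 way without overlap in both series. Settings that hold both series gave 5 to 7 such isotypes, the highest without mutant 3. With 1 series compared the count was 7 in the first alone, which is also the setting without wild type 3, and 6 in the second. Depth limits Tubb6, with 5 to 31 counts. The second series alone has 1 wild type, assumed to vary like the mutants.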
